A study of Homo sapiens with 4 samples.

Results

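The enhancers and promoters of a 10 Mb stretch of human chromosome 11 were described by the RNAs found next to them. The stretch covers 11q12 and 11q13 and holds the genes of the nuclear noncoding RNAs MALAT1 and NEAT1. Members were the distinct elements on chromosome 11 whose start lies between 60 and 70 Mb (hg38), which gave 427 of the 33948 elements in the table, 245 of them active enhancers and 182 active promoters. The stretch was chosen by the number of RNAs listed at its MALAT1 elements, which was known to be high, so that number and the scores are given as a description, with no test. At its edges, the first member (an enhancer at MS4A3) and the last (a promoter at AP003555.3) met 1 RNA each, and the nearest elements outside met 1 each, at OOSP4B and ANO1.

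The cells were K562, a human leukaemia line with the BCR-ABL1 fusion, with wild-type RUNX1 (WT) or with RUNX1 R320*, a premature stop codon in this blood transcription factor. There were 2 libraries per genotype, all fixed with 2 mM disuccinimidyl glutarate (DSG) for 45 min and 3% formaldehyde for 10 min. Neither separate cultures nor the number of R320* clones is stated in the labels. The authors' table has 1 pooled score per genotype, so no value here has a replicate error and no genotype difference could be tested. Depth is unknown. Of 19 K562 marker genes, 11 were listed as RNAs in the table, among them HBG2, HBE1, TFRC, BCR and ABL1, against 0 of 6 T-cell, 0 of 6 B-cell and 0 of 6 myeloid markers.

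GRID-seq ligates RNA to the DNA beside it in fixed nuclei and reads both ends of the joined molecule. MALAT1 is an abundant long noncoding RNA that stays in the nucleus and gathers at nuclear speckles, bodies rich in splicing factors. NEAT1, encoded next to it, is the scaffold of paraspeckles, which form beside speckles. Both RNAs are known to bind many active genes. The data here read the opposite direction too: which RNAs of other genes lie on the MALAT1 and NEAT1 DNA.

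MALAT1 (ENSG00000251562.8) lies at 65497738 to 65506516 and NEAT1 (ENSG00000245532.9) at 65422798 to 65445540 on chromosome 11. The antisense gene TALAM1 (65499312 to 65507432) overlaps MALAT1; the sources used here do not give the strand setting of the counting, so the reads of this pair cannot be told apart. Because the MALAT1 element met more RNAs than any other, the promoter sequences that fall inside it are shown, with that of LINC02736, which lies in a neighbouring element met by 190 RNAs. Each runs 5′ to 3′ from 250 bases before to 50 after a RefSeq start (GRCh38.p14). They are chr11:65497488-65497787 and chr11:65498795-65499094, plus strand, for MALAT1, and chr11:65488037-65488336, minus strand, for LINC02736. Capitals mark GC boxes (GGGCGG or CCGCCC) in the MALAT1 promoters and the RUNX motif (TGTGGT or ACCACA) in the LINC02736 promoter.
MALAT1 promoter 1: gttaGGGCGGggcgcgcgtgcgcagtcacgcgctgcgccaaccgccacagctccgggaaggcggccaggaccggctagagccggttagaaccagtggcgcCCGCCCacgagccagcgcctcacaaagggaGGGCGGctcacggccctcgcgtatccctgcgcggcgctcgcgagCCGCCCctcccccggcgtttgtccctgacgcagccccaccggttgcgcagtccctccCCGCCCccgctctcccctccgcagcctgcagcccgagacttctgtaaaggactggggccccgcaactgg
MALAT1 promoter 2: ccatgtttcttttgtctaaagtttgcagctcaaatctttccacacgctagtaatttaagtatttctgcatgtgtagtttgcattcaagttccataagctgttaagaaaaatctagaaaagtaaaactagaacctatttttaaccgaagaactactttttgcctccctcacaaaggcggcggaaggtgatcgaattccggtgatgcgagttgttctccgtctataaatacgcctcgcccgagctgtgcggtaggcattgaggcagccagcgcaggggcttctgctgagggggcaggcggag
LINC02736 promoter: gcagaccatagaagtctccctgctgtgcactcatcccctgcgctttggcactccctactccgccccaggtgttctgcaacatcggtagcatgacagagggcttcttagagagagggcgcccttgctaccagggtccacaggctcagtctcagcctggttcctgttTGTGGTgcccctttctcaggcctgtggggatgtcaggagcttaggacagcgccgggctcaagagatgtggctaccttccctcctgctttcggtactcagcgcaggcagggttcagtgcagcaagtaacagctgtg

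The first MALAT1 promoter is 73.7% G and C and holds 5 GC boxes, the second is 46% G and C and holds 0. Neither has a RUNX motif or a GATA motif (AGATAA or TTATCT). The LINC02736 promoter holds 1 RUNX motif, 1 GC box and 0 GATA motifs. Over 35116 RefSeq promoters of the same length, searched on both strands, 13.1% held the RUNX motif, 10.3% the GATA motif and 45.0% the GC box, with a median of 58.7% G and C. These matches describe the letters only. Of the 234 nearest genes of the members, 137 had a promoter in that table.

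How many RNAs met each element along the stretch? The 427 elements took part in 2008 connections with 324 RNAs, 278 protein-coding and 46 long noncoding. Most elements met few: the median was 2 RNAs (quartiles 1 and 3), and 132 elements (30.9%) met 1. The other elements of chromosome 11 had a median of 3 and at most 19. In the table as a whole 3.8% of elements met at least 10 RNAs, and here 10 elements (2.34%) did, a smaller share. Its top elements reached higher than any others. The table has 15 elements with at least 50 RNAs, and 4 of them lie beside MALAT1; the rest lie on chromosomes 1, 9, 21 and 22. The highest outside is the YDJC promoter on chromosome 22, with 83.

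**Figure D1:**
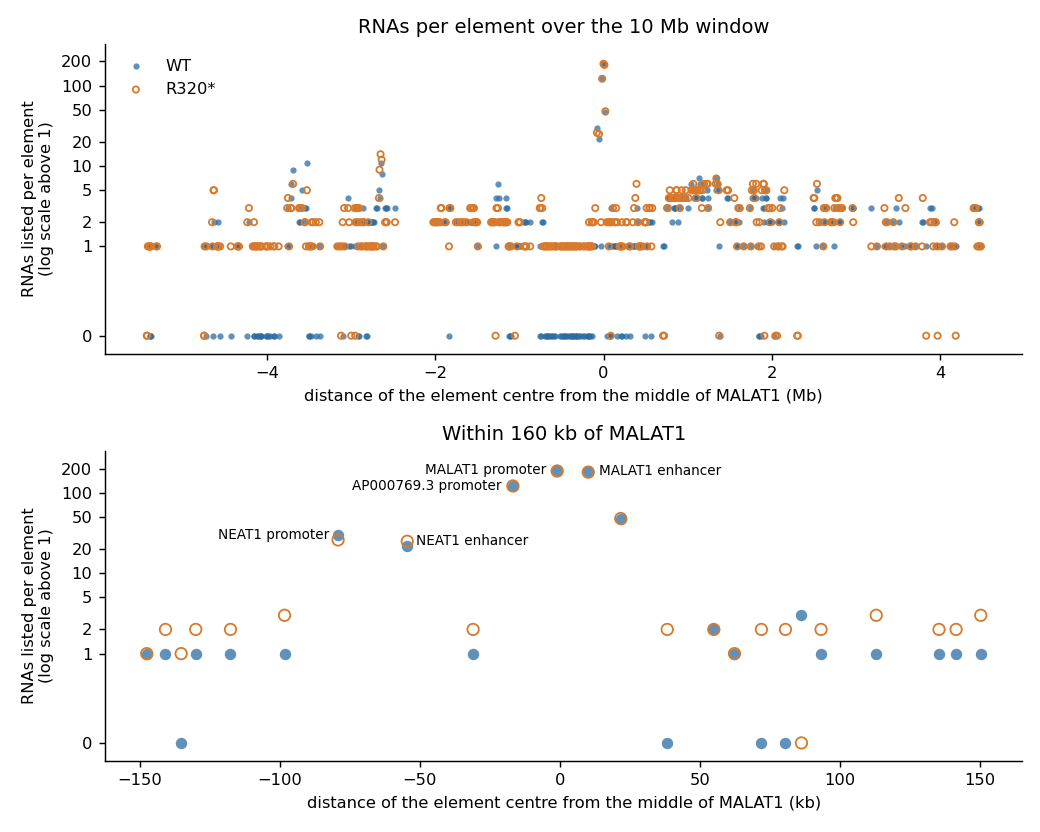
Number of RNAs listed at each element (log scale above 1) in WT (filled) and R320* (open) against the distance of the element's centre from the middle of MALAT1, for the 10 Mb stretch (upper panel, Mb) and within 160 kb (lower panel, kb). The MALAT1 promoter and enhancer stand at 181 to 190 RNAs in either genotype, while most elements stand at 1 to 3.

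Within 200 kb of MALAT1, 6 elements met at least 10 RNAs, and they are called the hub here; this definition was made after the counts were seen. The MALAT1 promoter element (65495438 to 65506843) covers the whole gene and met 279 RNAs, 190 in WT and 187 in R320*. The MALAT1 enhancer (65510456 to 65513905), 3940 bp from the gene, met 271, with 185 and 181. Upstream, the AP000769.3 promoter element (65481104 to 65489544) met 190, with 123 and 122. These 3 counts were nearly equal in WT and R320*. The elements rank 1, 2 and 3 in the table.

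The NEAT1 elements were much less visited. The NEAT1 promoter element (65414965 to 65430904) had 39 visiting RNAs, with 30 in WT and 26 in R320*, and the NEAT1 enhancer (65434014 to 65461211) met 32, with 22 and 25. Within the hub the counts did not follow length: the NEAT1 enhancer spans 27198 bp and the MALAT1 enhancer 3450 bp. The median length was 9923.5 bp at the 6 hub elements, 2616 bp over the stretch and 1868 bp over the table. The part of length in the counts was not tested. All 6 elements belong to the block of the table that holds the longer elements.

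The hub had sharp edges. The 4 elements on the MALAT1 side span 45.3 kb, and with the NEAT1 elements 111 kb. An enhancer between both groups (65465407 to 65476748), only 4.36 kb from the AP000769.3 promoter element, met 2 RNAs. These were NEAT1 RNA, which scored 1.49 in WT and 1.5 in R320*, and AP000944.2 RNA, which scored 1.70 in R320* only. The element 10.6 kb before the NEAT1 promoter met 3. Over bins of 200 kb the median never reached 2 times that of the table around MALAT1, in either genotype, because the bins hold many elements with 1 or 2 RNAs beside the hub.

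A handful of elements therefore held much of the stretch's traffic from other chromosomes. The hub held 885 of the 2008 connections (44.1%) and 844 of the 1043 trans connections (80.9%), those with an RNA of another chromosome. It is 0.0177% of the table's elements and held 3.86% of its trans connections and 11.2% of those listed in both genotypes. Of the 2637 RNAs in the table, 10.6% met the MALAT1 promoter element. Of the 633 RNAs with any trans connection in WT, 179 met it in that genotype, and of 617 in R320*, 174 did.

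Which RNAs converge on MALAT1 and NEAT1? Their 4 elements met 282 RNAs, 265 from other chromosomes and 17 from chromosome 11. The RNAs came from every autosome, led by chromosome 1 with 27, chromosome 2 with 25 and chromosome 7 with 23; 28 had no position in the RefSeq table. Long noncoding RNAs made up 14.9% of them and 6.79% of the other RNAs of the table. The hub RNAs came from longer genes (median 217 kb against 101 kb) and had more connections in all (54 against 32), and 75.2% against 25.3% had trans connections elsewhere. Most hub RNAs entered through a trans connection, and their totals include those at the hub. Of the 2355 other RNAs, 596 had any trans connection. The differences in connections are thus partly set by the choice. The part of gene length and of the number of connections in these counts was not tested. MALAT1 RNA in turn was listed at an element of the RNA's own gene for 45 of 273 hub RNAs (16.5%) and for 247 of 2261 others (10.9%).

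The visitors were nested. Every RNA listed at the AP000769.3 promoter or the MALAT1 enhancer was listed at the MALAT1 promoter element in the same genotype (123 and 185 RNAs in WT, and 122 and 181 in R320*). At the NEAT1 promoter, 25 of 30 RNAs in WT and 23 of 26 in R320* were also at the MALAT1 promoter in that genotype. With both genotypes pooled, 36 of 39 were, and the exceptions were AC008014.1, AC106744.1 and LINC00877, all long noncoding. With genotypes pooled, all 32 RNAs at the NEAT1 enhancer were also at the NEAT1 promoter.

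Scores were highest at the MALAT1 promoter element. The score is the authors' measure of contact; its scale is not stated, the lowest listed value is 1.2, and 0 means not listed. At the MALAT1 promoter the median was 2.56 in WT and 2.63 in R320*, and at the MALAT1 enhancer 2.36 and 2.44. It was 1.77 and 1.83 at the AP000769.3 promoter. The NEAT1 promoter had 2.13 and 2.17 and the NEAT1 enhancer 1.97 and 1.77. RNA by RNA, the score was higher at the MALAT1 promoter than at the enhancer for 183 of 185 RNAs in WT (median difference 0.229) and for 180 of 181 in R320* (0.228). Against the NEAT1 promoter it was higher for 24 of 25 RNAs in WT (median difference 1.24) and for 21 of 23 in R320* (1.21).

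**Figure D2:**
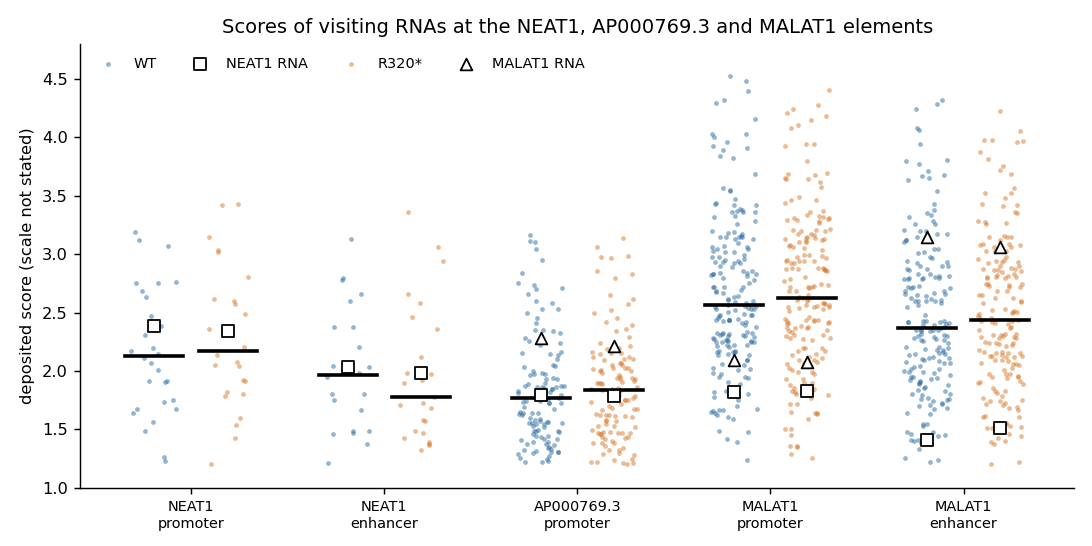
Deposited scores (scale not stated) of the RNAs listed at the NEAT1, AP000769.3 and MALAT1 elements in WT (left, blue) and R320* (right, orange); each dot is an RNA, bars are medians, triangles are MALAT1 RNA and squares NEAT1 RNA. Medians are highest at the MALAT1 promoter (2.56 and 2.63), while MALAT1 RNA itself is highest at the MALAT1 enhancer.

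MALAT1 RNA did not follow this order. It scored 2.09 in WT and 2.08 in R320* at its own promoter element, 3.15 and 3.06 at the enhancer just downstream, and 2.28 and 2.21 at the AP000769.3 promoter. At its own promoter element it ranked 155 of 190 RNAs in WT and 148 of 187 in R320*. It was listed at 4 elements of the stretch, all in the hub, and at neither NEAT1 element. NEAT1 RNA reached further: it was listed at 16 elements over 499 kb with genotypes pooled, 15 in WT and 14 in R320*. The outermost elements, at VPS51 (1.28) and EHBP1L1 (1.26), were listed in WT only and near the lowest listed value. In R320* its elements ran from 65329271 to 65559003. NEAT1 RNA scored 2.39 and 2.34 at its promoter element and 2.03 and 1.98 at its enhancer. At the MALAT1 promoter it scored 1.82 and 1.83. Of its elements outside the hub, an enhancer at FRMD8 (65403401 to 65404331) scored 1.91 and 1.87, and the rest at most 1.49 and 1.5.

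Most RNAs of other chromosomes at the MALAT1 promoter scored higher there than at the elements of their own genes. In WT, 171 of the 179 trans RNAs at the MALAT1 promoter also had a local connection, one with an element of their own gene. For 162 of these 171 (94.7%) the MALAT1 score exceeded the highest local score, with a median difference of 0.749. In R320* the same held for 155 of 166 (93.4%), with 0.737. Other elements on the chromosome of the RNA's gene (cis) were not compared. They can score above the local ones, as given above for MALAT1 RNA, though not for NEAT1 RNA in this stretch. The MALAT1 promoter was the highest-scoring trans element of 113 of the 179 RNAs in WT and of 122 of 174 in R320*. These RNAs were taken because they were listed there, and 212 of all 282 hub RNAs had trans connections outside the hub. For RNAs without such connections only hub elements could compete, so these counts are partly set by the choice. Since the formula of the score is unknown, it is not known whether local and trans scores share a scale.

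**Figure D3:**
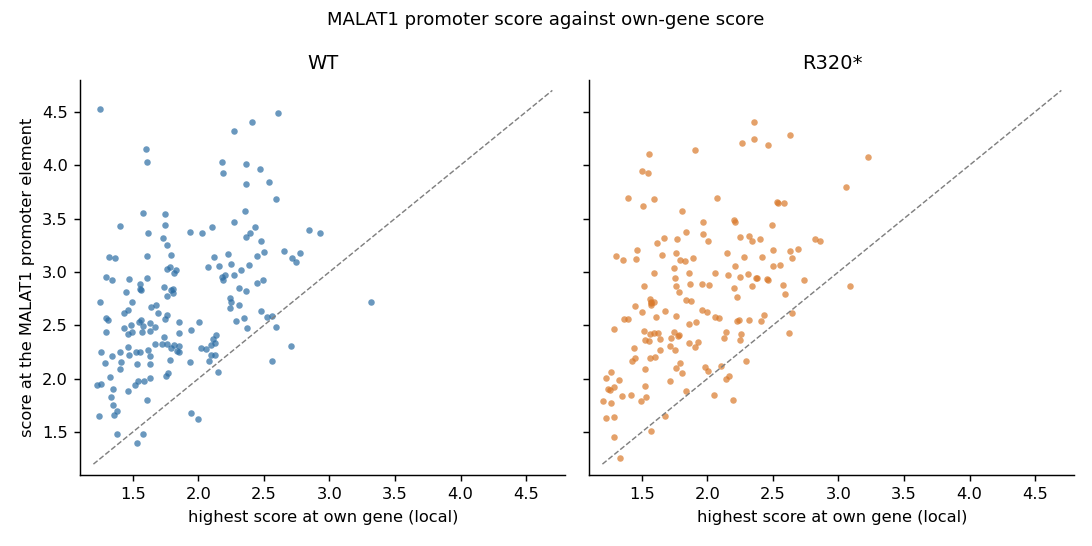
Score of each trans RNA at the MALAT1 promoter element against its highest local score, at an element of its own gene, in WT (left) and R320* (right). The dashed line marks equal scores, whose scale is not stated. Cis elements are left out. Points above the line, 162 of 171 in WT and 155 of 166 in R320*, have the higher score at MALAT1.

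The RNAs with the highest mean score over the MALAT1 and NEAT1 elements had varied functions. The mean was taken over those of the 4 elements at which an RNA was listed in WT or R320*. Both genotypes entered it, with 0 where the RNA was not listed, so the ranking favours RNAs listed in both. NYAP2, listed in WT only, scored 4.53 at the MALAT1 promoter and had a mean of 1.78. CREBBP, an acetyltransferase and transcriptional coactivator, was first by this mean and was not listed at NEAT1. At the MALAT1 promoter it scored 4.32 in WT and 4.21 in R320*, and at the enhancer 4.08 and 3.96. ATP1B3, a sodium pump subunit, scored 3.96 and 3.65 at the MALAT1 promoter. LETM1, a mitochondrial inner membrane protein, was listed at all 6 hub elements. It scored 4.40 and 4.41 at the MALAT1 promoter and 4.24 and 4.23 at the enhancer, above CREBBP at both, and its 3.19 and 3.42 at the NEAT1 promoter lowered its mean. The next were KCNIP2 (a potassium channel partner), AGTRAP, FAM178B, the kinase MAPKAPK5, the calcium sensor NCALD and ARMC6. FAM178B scored 4.48 and 4.28 at the MALAT1 promoter and AGTRAP 4.01 and 4.19. All 9 of these RNAs were listed at the MALAT1 promoter in both genotypes, which follows from the ranking. MAPKAPK5, AGTRAP and LETM1 scored higher there in R320* and the other 6 lower. The rule for the RNAs most like MALAT1 RNA in pattern took elements of the stretch listed in either genotype. It gave 46 RNAs tied at the highest Jaccard index of 1, ACOT11, ACSS2 and ADGRB1 first by name, and a further 100 had 0.75. ACOT11 was listed at these elements in WT only, and ACSS2 and ADGRB1 in R320* only, whereas MALAT1 RNA was listed in both. The index thus does not show a match within each genotype.

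Speckle proteins bind MALAT1, so the RNAs of their genes were looked for. Of 18 genes of speckle and paraspeckle proteins, 7 were listed as RNAs anywhere (DAZAP1, HNRNPU, MBNL1, SFPQ, SON, SRRM1 and SRRM2), and 1, the splicing regulator MBNL1, was at the hub. Of the 11 K562 marker genes listed as RNAs, 0 were at the hub. Over all RNAs of the table, 282 of 2637 (10.7%) were there.

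How far did WT and R320* share these contacts? At the MALAT1 promoter element, 98 of 279 RNAs were listed in both genotypes (35.1%), 92 in WT only and 89 in R320* only. For the 98 shared RNAs the scores were close: the median difference (R320* minus WT) was -0.01 with an SD of 0.24 over RNAs, 47 were higher and 51 lower in R320*, and Pearson's r across these RNAs, which share the element and the libraries, was 0.947. The differences ran from -0.65 for PAPPA (3.36 in WT, 2.71 in R320*) to 0.73 for LDLRAD4, a regulator of TGF-beta signalling (2.89, 3.61).

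The unshared RNAs were not the weakest. Those listed in WT only had a median score of 2.53, and 80 of 92 scored at least 2; those in R320* only had 2.62, and 74 of 89 did. The median of shared RNAs was 2.67 in WT and 2.72 in R320*. Of the 92 in WT only, 79 were listed elsewhere in R320*, but only 2 at another hub element; of the 89 in R320* only, 75 were listed elsewhere in WT, 3 at another hub element. Among the trans RNAs, 44 of the 88 in WT only had 0 trans connections anywhere in R320*, and 40 of the 83 in R320* only had 0 in WT. Over all RNAs with trans connections in a genotype, 254 of 633 in WT (40.1%) and 238 of 617 in R320* (38.6%) had 0 in the other, so most of this share is found across the table. Whether such RNAs fell just under the authors' minimum cannot be seen from the table.

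**Figure D4:**
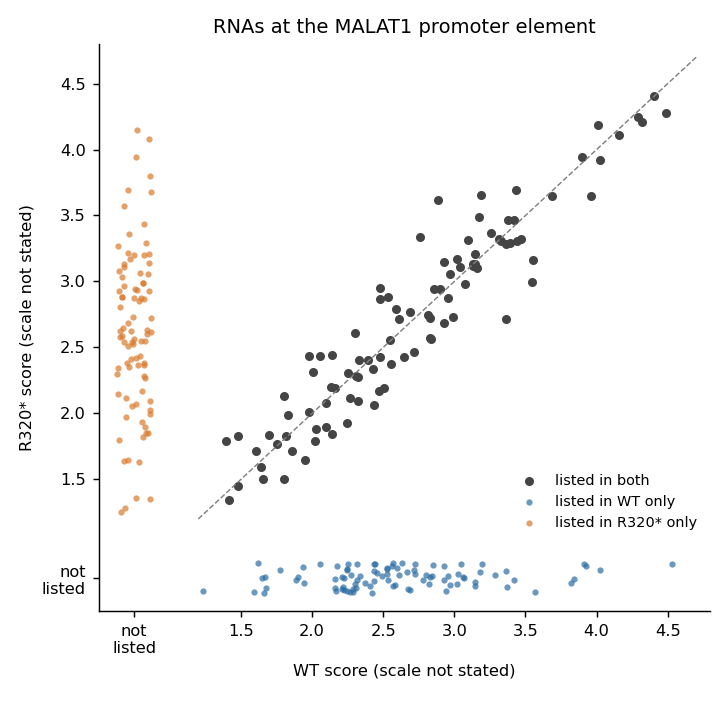
Score of each RNA at the MALAT1 promoter element in WT (x axis) and R320* (y axis), scale not stated; black points are the 98 RNAs listed in both, blue points the 92 in WT only and orange points the 89 in R320* only, spread sideways for visibility, with a dashed line of equal scores. Shared RNAs lie along the line and unshared RNAs cover the same range of scores.

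The strongest RNAs in WT only were NYAP2 (4.53), a phosphoprotein of neurons, and RYR2 (4.03), a calcium release channel. NYAP2 had 404 connections in WT and 0 in R320* over the whole table, whereas RYR2 had 113 in each. RYR2 was listed at NEAT1 in both genotypes: it scored 3.12 in WT and 3.43 in R320* at the NEAT1 promoter and 3.13 and 3.36 at the NEAT1 enhancer. WWP2 (3.93), DTX2P1-UPK3BP1-PMS2P11 (3.91) and BAZ2B (3.84) followed. Over the whole table DTX2P1-UPK3BP1-PMS2P11 had 174 connections in WT and 0 in R320*, WWP2 19 and 21, and BAZ2B 32 and 24. In R320* only, the strongest were MYLK3 (4.15), a myosin kinase, STARD3NL (4.08), MYCBP2 (3.95), HMOX2 (3.80) and SEC14L1 (3.69). STARD3NL had 13 connections in WT and 14 in R320*, and SEC14L1 19 and 21, so their absence from the hub in WT was not an absence from the table. MYLK3, MYCBP2 and HMOX2 had 0 connections in WT over the whole table, and 11, 17 and 21 in R320*. The RNAs named here were taken as the 5 highest scores of each kind, a choice made after the values were seen.

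RUNX1 RNA itself (ENSG00000159216.18, chromosome 21) was among the visitors. It scored 1.94 at the MALAT1 promoter and 1.76 at the MALAT1 enhancer in WT and was not listed at either in R320*. Both values are below the element's WT median. RUNX1 RNA had 16 connections in WT and 30 in R320*, and no other element of the stretch was among them.

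Over the whole stretch, 862 of 2008 connections were listed in both genotypes (42.9%), against 45.2% in the table, which is near the background. The exact 95% binomial interval of 40.8 to 45.1 treats connections as independent. They are not, since RNAs recur over elements, so no conclusion is drawn from it. WT alone listed 497 and R320* alone 649. The types differed. Of the 1043 trans connections, 301 were in both genotypes (28.9%), against 11.5% of the table's trans connections. At the hub it was 282 of 844 (33.4%), and at the other elements of the stretch 19 of 199 (9.55%). In the rest of chromosome 11 it was 4.47%. Elsewhere in the table, the 20 elements outside the hub with at least 40 RNAs, a minimum set after the counts were seen, shared 285 of 842 trans connections (33.8%), so the hub's share was close to that of other much visited elements. The hub's RNAs are counted once per element and recur over neighbouring elements, so these connections are not independent.

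On the same chromosome the balance leaned to R320*. The 965 local and cis connections comprised 561 in both, 118 in WT only (12.2%) and 286 in R320* only (29.6%). Chromosome 11 outside the stretch leaned the same way, with 14.6% in WT only and 30.3% in R320* only, and the table less so, with 21.5% and 25.5%, so this lean is no feature of the stretch alone. AP000944.2 and AP003108.2, both listed as protein-coding and neither listed anywhere in WT, made up 117 of the 286; without them 169 remain. The sources used here do not say whether both RNAs were in the annotation used for each genotype, and this was not tested. AP000944.2 was listed at 70 elements over 1159 kb in R320*, including all 6 of the hub, and AP003108.2 at 47. All 6 local connections listed in R320* only belonged to this pair, and 0 local connections were in WT only.

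The RNAs that spread furthest along the stretch came from its own genes, and most were listed at similar numbers of elements. RTN3, which shapes the endoplasmic reticulum, was at 76 elements in WT and 64 in R320*, over 7234 kb. MACROD1, an ADP-ribose hydrolase, was at 66 and 72, PACS1, a sorting protein, at 58 and 69, and PPP6R3, a phosphatase subunit, at 59 and 59. C11orf80 was at 59 and 53 and KDM2A, a histone demethylase, at 52 and 49. RBM14-RBM4 was at 42 and 59 and RBM4, a splicing regulator, at 39 and 54; RBM14-RBM4 is a readthrough transcript that includes RBM4, so their reads may not be separable. SLC3A2, an amino acid transporter subunit, was at 34 and 44.

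**Figure D5:**
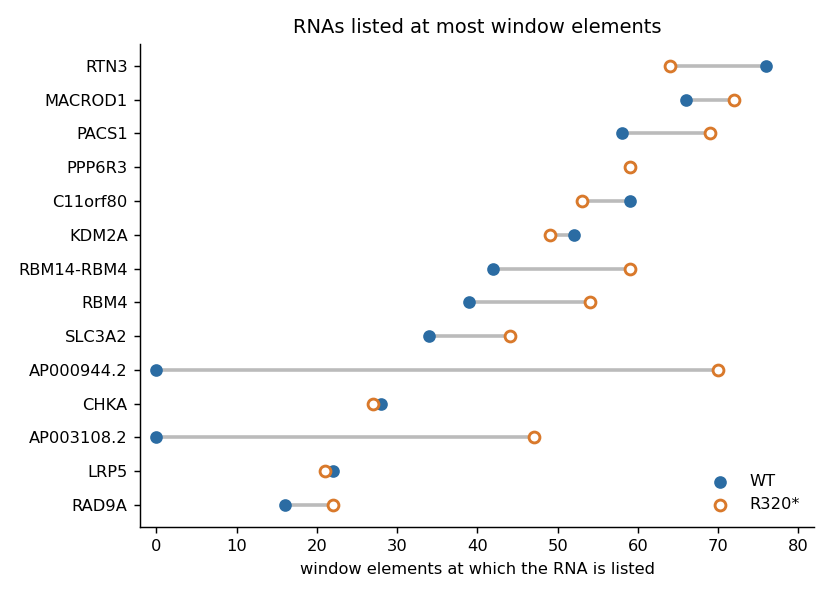
Number of elements of the stretch at which each of the 14 most widespread RNAs was listed, in WT (filled) and R320* (open), with a grey line joining both. AP000944.2 (0 and 70) and AP003108.2 (0 and 47) stand apart, and RBM14-RBM4 and RBM4 show the next largest gaps.

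There were 18 RNAs with a mean of at least 10 elements and a listing in each genotype. Of these, 9 were at more elements in R320*, 7 at fewer and 2 at equal numbers, with a median log2 ratio of 0.06. None passed 2-fold. The ratios ran from -0.26 for LMAN1, a cargo receptor (12 and 10), to 0.49 for RBM14-RBM4. The others with the largest gains were PC (10 and 14), RBM4, RAD9A (16 and 22), SLC3A2 and FADS2 (11 and 14). Those with the largest losses after LMAN1 were RTN3, C11orf80, NEAT1, KDM2A and LRP5 (22 and 21). Among RNAs of other chromosomes, LMAN1 was listed at 13 elements in all, AC097528.1 at 12 and IMMP2L at 15, of which 4 were in WT and 14 in R320*.

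Did single elements gain or lose RNAs? Of 212 elements listed in both genotypes with a mean of at least 2 RNAs, 25 (11.8%) had at least 2-fold more RNAs in R320*, against 12.4% in the table, and 13 (6.13%) at least 2-fold fewer, against 9.6%. Both shares are near or below the background. Of the 27 elements with a mean of at least 5, 12 met more RNAs in R320*, 9 met fewer and 6 met equal numbers. The number of RNAs had a log2 ratio of -0.02 at the MALAT1 promoter, -0.03 at its enhancer, -0.21 at the NEAT1 promoter and 0.18 at the NEAT1 enhancer. These are net numbers: as given above, 35.1% of the RNAs at the MALAT1 promoter were listed in both genotypes.

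The largest gain among those 27 was at the promoter of WDR74, a ribosome assembly factor (62837043 to 62842670), which went from 4 RNAs in WT to 9 in R320*. Next to it, the SLC3A2 promoter element (62844449 to 62859094) had 17 RNAs, 11 in WT and 14 in R320*, the highest number outside the hub. The SLC3A2 enhancer (62861821 to 62867030) met 8 and 12. This group surrounds SNHG1, a noncoding host gene of small nucleolar RNAs (62851978 to 62855885). SNHG1 RNA scored 2.88 in WT and 2.98 in R320* at the SLC3A2 promoter element and 3.49 and 3.55 at the WDR74 promoter.

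The SNHG1 neighbourhood shared visitors with the hub. All 13 trans RNAs at the SLC3A2 promoter element, all 11 at its enhancer and all 8 at the WDR74 promoter were also hub RNAs. SKI, a TGF-beta corepressor, scored 2.5 and 2.61 at the SLC3A2 promoter element, and ENTPD3-AS1 2.72 and 2.91. ENTPD3 was listed there in R320* only (2.40); it overlaps ENTPD3-AS1, and their reads may not be separable. TTYH2 (2.44) and ANKRD11 (2.39), a chromatin regulator, were also in R320* only, and DTX2P1-UPK3BP1-PMS2P11 (3.27) and FOXK1 (2.42) in WT only. Across all elements outside the hub, 59 trans RNAs were listed and 43 of them were hub RNAs.

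The largest loss was at an enhancer 8000 bp from FTH1, the ferritin heavy chain gene that stores iron (61975634 to 61976083): 11 RNAs were listed in WT and 5 in R320*. FADS1, a fatty acid desaturase, scored 2.22 and 2.19 there, and IMMP2L 1.70 and 1.69. RSF1 (1.87), MACROD1 (1.80) and LINC00534 (1.72) were listed there in WT only. The FADS2 enhancer (61798294 to 61825051) met 9 and 6 RNAs; MGA (2.66), NUP214 (1.95) and EZH2 (1.92), a Polycomb methyltransferase, were in WT only. Smaller differences were at the RBM4 promoter (7 and 5), the ZDHHC24 promoter (6 and 5), and, with more in R320*, an enhancer near C11orf80 and the RAD9A promoter (4 and 6 each).

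Grouped by the function of the nearest gene, elements other than those of MALAT1 and NEAT1 had medians of 1 to 3 RNAs. Elements at genes of blood cell surface proteins such as MS4A2 and MS4A3 were the least visited: 11 elements, 1 RNA each at the median and at most. Elements at transcription and chromatin genes had 34 connections in WT and 47 in R320*; of 24 elements, 11 met more RNAs in R320*, 1 met fewer and 12 met equal numbers. Over all elements of the stretch outside the hub, 201 of 421 (47.7%) met more and 76 (18.1%) fewer, against 36.6% and 32.4% in the table; without AP000944.2 and AP003108.2 the stretch had 35.8% and 25.3%. The list also holds VPS37C, an endosomal sorting gene, whose 3 elements met equal numbers. KDM2A had 11 and 14 connections and RELA, an NF-kappaB subunit, 1 and 5; AP000944.2, listed in R320* only, was at both RELA elements. Elements at iron and redox genes had 20 and 13, of which FTH1 had 11 and 7 and GSTP1, a glutathione transferase, 7 and 4. Elements at RNA processing genes had 41 and 38, those at cytoskeleton and trafficking genes 48 and 50, and those at fatty acid and membrane lipid genes 34 and 34. The distal growth genes had 28 and 28; the 2 elements at CCND1, the cyclin D1 gene, met a single RNA in both genotypes.

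Counts and sharing also varied with position. Between 66 and 67 Mb, around RBM4, C11orf80 and PACS1, the median was 5 RNAs and 70.7% of connections were in both genotypes. Between 63 and 64 Mb, around RTN3 and MACROD1, 86.8% were shared and 0 were trans. Around the hub, between 65 and 66 Mb and without its 6 elements, the median was 1 RNA and 25.2% were shared, with 11 connections in WT only and 72 in R320* only. AP000944.2 made up 47 of the 72, and without it 43.8% were shared. Sharing was lowest between 60 and 61 Mb, at 11.9%, or 16.1% without AP003108.2, and between 61 and 62 Mb it was 26.9%, or 37.8% without that RNA.

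Scores of shared connections differed little. Over the 862, the median difference (R320* minus WT) was 0.03 with an SD of 0.23, against 0.04 in the table. None differed by 1 unit, against 0.0998% higher and 0.0749% lower by that much in the table. The largest rise was for LDLRAD4 at the MALAT1 enhancer, from 2.66 to 3.43, followed by RTN3 at an enhancer near AP003774.4 (1.33 to 2.07), RBM14-RBM4 at an enhancer at PC (1.4 to 2.1) and PACS1 at the promoter of KAT5, an acetyltransferase (1.27 to 1.92). The largest fall was for PRCD at the NEAT1 promoter, from 2.37 to 1.54. CHCHD3 fell from 2.15 to 1.33 at the AHNAK promoter, RTN3 from 2.38 to 1.65 at an enhancer of MACROD1, and CAMTA1 from 2.15 to 1.46 at the AP000769.3 promoter.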

How the data were processed

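GRID-seq libraries of K562 cells, 2 WT and 2 RUNX1 R320*, took their group from the labels' genotype. The submitters' processing notes name cutadapt 1.12, BWA, bedtools and the hg38 build. The authors deposited 1 table with a score per connection and pooled genotype; the sources used here do not give its formula, scale or depth. Scores are 0 or above 1.2, so 0 was read as not listed. Counting listed RNAs therefore depends on the authors' minimum.

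Elements were counted with pandas 2.3.3. Starts were read as counting from 0 and printed counting from 1. Gene positions and promoters came from RefSeq (GRCh38.p14). A 2-fold difference in RNAs per element needed a mean of at least 2 RNAs; scores were compared by differences of 1 unit. The code for the 2-fold calls, spread and merging was run on simulated data. There, elements met many more RNAs than here and the planted changes in RNAs were larger than 2-fold. That run therefore does not show how the calls behave at the low counts of these elements. The members and lists were chosen with earlier results of these data known. Named items were the 10 most widespread RNAs, the 10 highest scoring at MALAT1 and NEAT1, the 6 largest ratios per direction, the 4 largest element and connection differences per direction, and up to 4 members per gene group. Alternatives covered the minimum score, RNA and element types, merging and bins. Some items that these rules take are not reported here.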

Additional observations from a re-analysis of the deposited data

How the results depend on the processing

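No paired analysis was possible because the table holds 1 pooled score per genotype, and for the same reason leaving out a replicate was not run. The 200 kb spread stayed at 0 kb under every alternative. The extent by consecutive elements with at least 10 RNAs, added after the counts were seen, was 45.3 kb in both genotypes. It became 11.4 kb in WT and 18.5 kb in R320* on the same chromosome only, 111 kb in both with promoters only and 182 kb in both with elements merged within 10 kb, which join neighbours. The share in both genotypes moved from 42.9% to 58.1% on the same chromosome only, to 48.1% with RNAs listed in both genotypes anywhere, and, added later, to 49.96% without the 6 hub elements and 45.6% without AP000944.2 and AP003108.2. A minimum score of 1.5 lowered the median RNAs per element from 2 to 1 in both WT and R320*; on the same chromosome only, and for enhancers only, it was 1 in WT and 2 in R320*. On the same chromosome only, the MALAT1 and NEAT1 elements met 11 RNAs in WT, 13 in R320* and 7 in both, in place of 195, 190 and 103. The median score difference turned from 0.0297 to -0.00972 when centred on the table. Elements past 2-fold (25 more, 13 fewer) were 14 and 7 at a minimum score of 1.5, 12 and 6 for enhancers only, 13 and 7 for promoters only, 55 and 31 with no minimum of RNAs, and 1 and 1 with a mean of at least 5. Those with fewer RNAs were 8 on the same chromosome only and 6 with merged elements. Without replicates or depth, none of these differences can be set against an error, and a connection missing in a genotype may lie just below the authors' minimum. Of the RNA scores that neighbouring elements share, 1.24% were equal in both genotypes, at 8 of 426 neighbouring pairs.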
